A study of Mus musculus with 56 samples.

Results

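The 9 interferon-stimulated genes Ifit1, Ifit3, Isg15, Irf7, Rsad2, Usp18, Stat2, Ifi44 and Oasl1 were followed in the livers of 56 mice. They were taken by symbol and matched to the Ensembl identifiers of the count files, and were proposed with earlier results of these data known. The rule itself uses symbols alone. All 9 were found among the 45513 genes counted, and all 9 were among the 14314 genes that passed the filter on low counts. The mice were female APOE*3Leiden.CETP transgenic animals of 9 to 14 weeks of age, a line with a human-like lipoprotein metabolism, and the drug study lasted 16 weeks. Every group, the controls included, ate a Western-type diet with 0.15% cholesterol and 15% cacao butter, so no group shows the liver on ordinary chow. There were 7 groups of 8 mice: control mice gavaged with vehicle, ponatinib at 3 or 10 mg/kg, nilotinib at 10 or 30 mg/kg, imatinib at 150 mg/kg given 2 times a day, and L-NAME at 0.12 to 0.20% in the drinking water. Ponatinib, nilotinib and imatinib are BCR-ABL1 tyrosine kinase inhibitors used in chronic myeloid leukaemia, and L-NAME blocks nitric oxide synthase. The time on L-NAME was not given in the sources used here. All 6 treated groups were compared with the same 8 control mice.

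Poly(A) RNA was sequenced to between 5342379 and 97473341 reads on genes per mouse, with a median of 7570238. The deepest library was that of L-NAME mouse 2, and 4 libraries in all held 12946970 reads or more (2 control, 1 ponatinib 3 mg/kg, 1 L-NAME). Mouse numbers only name the animals within a group. The share of uniquely aligned reads that fell outside annotated genes moved with the groups: its median was 7.85% in control, 8.41% with ponatinib 3 mg/kg, 10.9% with ponatinib 10 mg/kg, 9.51% with nilotinib 10 mg/kg, 9.84% with nilotinib 30 mg/kg, 9.80% with imatinib and 10.7% with L-NAME. In 5 libraries this share was above 12% (1 ponatinib 10 mg/kg, 2 nilotinib 30 mg/kg, 1 imatinib, 1 L-NAME). Genes with a single read made up 8.61% to 31.8% (median 11.6%) of the genes with 1 to 10 reads, and reads carried no molecular identifiers, so copies of 1 molecule could not be told from separate molecules. The summed level of 8 hepatocyte genes lay between 70314 and 154345 CPM (reads of a gene scaled to the size of the library by TMM) in every mouse, and all 8 passed the filter. Control mouse 5 stood apart from the other controls in its interferon genes, as described further on, and the results that its absence changed most are given with and without it.

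Cells that sense viral or displaced nucleic acid secrete type I interferon, which binds the receptor pair Ifnar1 and Ifnar2. The kinases Jak1 and Tyk2 then phosphorylate Stat2, which acts with Irf9 in the complex ISGF3 on a DNA element called ISRE in the promoters of target genes. Interferon gamma, secreted by T and NK cells, uses the receptor pair Ifngr1 and Ifngr2 and acts through a different element, GAS. In the liver both hepatocytes and Kupffer cells, the resident macrophages, respond to interferon, and a low level of these genes is present without infection. Stat2 and Irf7 are transcription factors of the response, Isg15 is a ubiquitin-like protein that is attached to other proteins, and Usp18 removes Isg15 and dampens the type I receptor. Ifit1 and Ifit3 belong to a family that binds foreign RNA, Rsad2 (viperin) makes a chain-terminating nucleotide, and Oasl1 is an oligoadenylate synthetase-like protein that limits translation of Irf7 in mice. Ifi44 is an interferon-induced gene.

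The promoter stretches that hold the ISRE letters are shown as background to the response described above. Binding of ISGF3 was not tested. The 9 genes were chosen as interferon-stimulated, so how often they hold these letters is no independent result. The RefSeq table (GRCm38.p6, 250 bases before to 50 bases after each start) held 8 of the 9 genes, all but Usp18. The letters GAAANNGAAA, on either strand, were found in the promoters of 5 of the 8 genes, and in 3.99% of the 27025 genes in the table. The GAS letters TTCNNNGAA, which read the same on both strands, were found in 0 of the 8 and in 9.55% of all genes. Capitals mark the ISRE letters, and each line reads 5′ to 3′ along the strand of the gene.
Ifit1: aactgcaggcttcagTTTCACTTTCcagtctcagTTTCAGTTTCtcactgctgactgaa
Ifit3: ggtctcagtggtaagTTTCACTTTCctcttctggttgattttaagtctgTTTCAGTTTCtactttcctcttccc
Isg15: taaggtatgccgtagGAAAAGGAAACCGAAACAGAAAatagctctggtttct
Rsad2: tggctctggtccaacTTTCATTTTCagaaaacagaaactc
Stat2: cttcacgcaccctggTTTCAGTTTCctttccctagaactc

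The Ifit1 stretch is chr19:34640770-34640828 on the forward strand and holds 2 matches, from 104 to 76 bases before the start of the gene. The Ifit3 stretch is chr19:34583358-34583431 on the forward strand with 2 matches from 156 to 113 bases before the start. The Isg15 stretch is chr4:156200860-156200911 on the reverse strand, and its 3 matches overlap in 1 run from 78 to 57 bases before the start. The Rsad2 stretch is chr12:26456548-26456587 on the reverse strand with 1 match from 120 to 111 bases before the start, and the Stat2 stretch is chr10:128270261-128270300 on the forward strand with 1 match from 222 to 213 bases before the start. Irf7, Ifi44 and Oasl1 had no match to these letters in this window. In GENCODE vM21 (GRCm38), all 9 are protein-coding genes. Ifit1 (34640871 to 34650009) and Ifit3 (34583531 to 34588731) are neighbours on chromosome 19. Isg15 lies on chromosome 4 (156199424 to 156200818), Irf7 on chromosome 7 (141262706 to 141266481) and Rsad2 on chromosome 12 (26442746 to 26456452). Usp18 lies on chromosome 6 (121245906 to 121270917), Stat2 on chromosome 10 (128270559 to 128292849), Ifi44 on chromosome 3 (151730922 to 151749960) and Oasl1 on chromosome 5 (114923240 to 114937915).

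All 9 genes were expressed in every mouse. Per kilobase of merged exons, the mean level over the 56 mice was highest for Irf7 (34.4 CPM per kb), followed by Isg15 (26.4), Ifit3 (22.2) and Stat2 (17.9). Usp18 (9.95), Oasl1 (9.88), Ifit1 (7.14) and Rsad2 (4.65) were lower, and Ifi44 was the lowest at 2.65 CPM per kb. The median number of reads per mouse ran from 129.5 for Ifi44 to 1019.5 for Irf7, and the fewest reads for any of the 9 genes in 1 mouse was 18, for Ifi44. Ifit3 shared 41.1% of the 75-base stretches of its transcript with the neighbouring copy Ifit3b, and Ifit1 shared 5.19% with Ifit1bl2. Reads that align to more than 1 place were not counted, so the values of Ifit3 rest on the rest of its sequence and are less certain. The other 7 genes shared no such stretch with another gene.

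**Figure D1:**
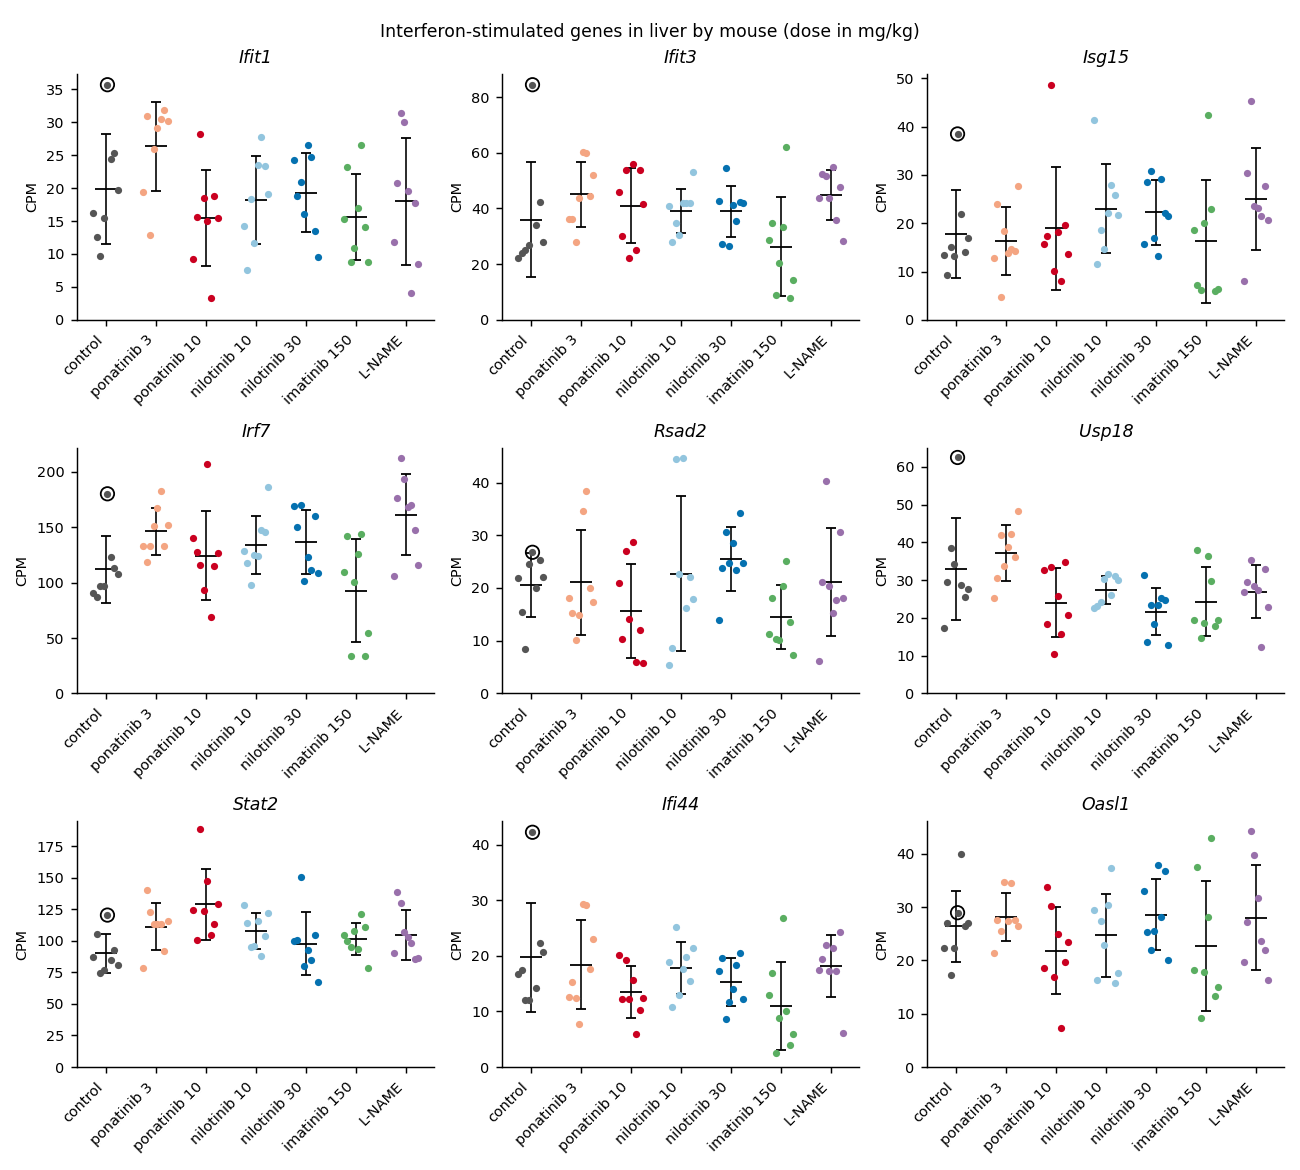
Level of each of the 9 genes (vertical axis, CPM after TMM scaling, starting at 0) in every mouse of the 7 groups (horizontal axis, doses in mg/kg). Points are mice, bars are the group mean ± SD (n = 8), and the ringed point is control mouse 5, which was the highest control mouse for 8 of the 9 genes. The groups overlap for every gene.

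Taken over all 6 treated groups at once, 2 of the 9 genes differed between groups by edgeR's quasi-likelihood F test, Usp18 (adjusted p = 0.0421) and Irf7 (adjusted p = 0.0460), against 18.7% of all genes tested. Stat2 came next with an adjusted p of 0.0508, and the other 6 genes had adjusted p values of 0.232 to 0.727. These calls were not stable. When each of the 56 mice was left out in turn, Usp18 was called in 37 fits and Irf7 in 15, and neither was called with the share of reads outside genes as a covariate (adjusted p = 0.0881 and 0.0891). Without control mouse 5 Irf7 had an adjusted p of 0.0252, Usp18 of 0.0601 and Stat2 of 0.0239. In the separate comparisons with control, 1 of 54 tests of the 9 genes passed an adjusted p of 0.05 (edgeR, Benjamini-Hochberg over all genes tested), that of Stat2 with ponatinib 10 mg/kg. Fold changes below are log2 differences from edgeR with their standard error (SE), and called means an adjusted p below 0.05 over all genes. The share of all genes at an unadjusted p below 0.05 was not computed. Counts at that cut-off therefore cannot be set against the shares of all genes called.

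Stat2 rose with ponatinib 10 mg/kg. In the control mice its level was lowest at 74.2 CPM, with a median of 85.7 and a highest value of 120.3 CPM, and in the ponatinib 10 mg/kg mice it ran from 101 through a median of 124 to 189 CPM. All 8 treated mice were above the mean of the controls and 5 of 8 were above every control mouse, and the groups overlapped. The log2 fold change was 0.52 (SE 0.13, edgeR adjusted p = 0.00477), a 1.43-fold higher level (95% CI 1.19 to 1.71). The log2 fold change without control mouse 5 was 0.59 (adjusted p = 0.00228). An exact two-sided permutation test on this gene alone gave p = 0.00186, where the smallest possible value is 0.000155. Of the 99 such tests run on the 9 genes and 11 comparisons, 16 had p below 0.05.

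The Stat2 difference moved with a property of the libraries. The mouse with the highest Stat2 level in this group, mouse 3, also had the group's highest share of reads outside genes, 15.2%. Without this mouse the log2 fold change of Stat2 was 0.42 (edgeR adjusted p = 0.0279), and without the 5 libraries above 12% it was 0.41 (adjusted p = 0.0295). With the share outside genes as a covariate it was 0.35 and was no longer called (adjusted p = 0.206). Since the share also differed between the groups, its part and the part of the drug cannot be told apart in that fit.

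With ponatinib 10 mg/kg, 1 of 9 genes was called, while 13.1% of all genes were called. At the cut-off of an unadjusted p below 0.01, 1 of 9 passed, against 15% of all genes. The remaining 8 genes had log2 fold changes from -0.54 for Ifi44 to 0.20 for Ifit3. The median of the 9 was -0.27, compared with -0.01 over all genes tested. Usp18 was 24.0 ± 9.09 CPM against 33.0 ± 13.4 CPM in control (SD, n = 8), a log2 fold change of -0.45 (SE 0.22, edgeR adjusted p = 0.167), and without control mouse 5 it was -0.25 (adjusted p = 0.514). The median of the 9 was then -0.18. Ponatinib 3 mg/kg gave a median of 0.18 and 0 called genes of 9, where 0.0419% of all genes were called. At an unadjusted p below 0.01 it was 0 of 9 against 3.14% of all genes, at an unadjusted p below 0.05 edgeR passed 1 of 9 (Stat2, log2 fold change 0.30, SE 0.13), and DESeq2 called 0. Irf7 was above the control mean in 8 of 8 mice at this dose, at 146 ± 21.0 CPM against 112 ± 30.1 CPM, with an edgeR adjusted p of 0.534.

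With imatinib, none of the 9 genes was called by edgeR, while 10.3% of all genes were. At an unadjusted p below 0.05 the count was 2 (Ifi44 and Usp18), at an unadjusted p below 0.01 it was 1 against 12.9% of all genes, DESeq2 called 1 and limma voom called 3. The fold change was below 0 for 8 of the 9 genes, with a median of -0.35 compared with -0.02 over all genes. Ifi44 ranged from 2.56 through a median of 9.51 to 26.7 CPM with imatinib and from 12.1 through 17.1 to 42.2 CPM in control. For Ifi44, 5 of 8 imatinib mice lay below every control mouse, and the others overlapped with the controls. The log2 fold change of Ifi44 was -0.84 (SE 0.30, edgeR adjusted p = 0.0603), and an exact permutation test gave p = 0.0315. Without control mouse 5 it was -0.59 (adjusted p = 0.240).

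The coefficient of variation was higher with imatinib than in control for 6 of the 9 genes, and for 9 of 9 when control mouse 5 was left out. For Ifit3 it was 68.0% with imatinib, 57.5% in control and 24.4% in the other 7 controls, and for Irf7 49.8%, 26.9% and 12.7%. For Stat2 it was 12.8% with imatinib, 17.3% in control and 12.2% in the other 7. With ponatinib 10 mg/kg the coefficient of variation was also above that of the 8 controls for Ifit1, Isg15, Irf7, Rsad2, Stat2 and Oasl1. For Isg15 it was 66.9%, against 51.2% in control and 26.1% in the other 7 controls. For Ifit3, Usp18 and Ifi44 it was below the 8 controls but above the other 7. Only the control group had a mouse left out. The difference in spread was not tested. Ifit3 ran from 7.70 through a median of 24.6 to 62.0 CPM with imatinib, an 8.06-fold span, against 22.2, 27.5 and 84.4 CPM in control. Irf7 ran from 33.5 through 105 to 144 CPM with imatinib, against 86.7, 103 and 180 CPM in control. Mice 3, 7 and 8 were the 3 lowest of the imatinib group for Ifit3, Irf7 and Ifi44, and mouse 6 was the highest for 6 of the 9 genes. Neither Ifit3 nor Irf7 was called: the log2 fold change was -0.45 for Ifit3 (SE 0.26, edgeR adjusted p = 0.300) and -0.27 for Irf7 (SE 0.21, adjusted p = 0.465). Both were -0.14 without control mouse 5 (adjusted p = 0.813 for Ifit3 and 0.775 for Irf7). Stat2 was the exception in direction, at 101 ± 13.0 CPM against 90.2 ± 15.6 CPM (adjusted p = 0.477).

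With L-NAME, none of the 9 genes was called by edgeR, while 11.8% of all genes were. At an unadjusted p below 0.05 the count was 1 (Irf7), at an unadjusted p below 0.01 it was 0 against 14% of all genes, and DESeq2 and limma voom each called 1, Irf7. Irf7 ran from 106 through a median of 169 to 213 CPM, against 86.7, 103 and 180 CPM in control, and 7 of 8 mice were above the control mean. Its log2 fold change was 0.53 (SE 0.21, edgeR adjusted p = 0.0828, exact permutation p = 0.0113). Without control mouse 5 it was 0.65 and was called (edgeR adjusted p = 0.0315). The median over the 9 genes was 0.09, compared with 0.02 over all genes, and without control mouse 5 it was 0.13.

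With nilotinib 30 mg/kg none of the 9 genes was called by edgeR and 5.77% of all genes were, and at an unadjusted p below 0.01 the count was 1 of 9 (Usp18) against 9.35% of all genes. At an unadjusted p below 0.05 it was also 1, DESeq2 called 0 and limma voom called 1. Usp18 ran from 12.8 through a median of 23.3 to 31.3 CPM, against 17.3, 29.0 and 62.5 CPM in control, and the groups overlapped. The log2 fold change of Usp18 was -0.61 (SE 0.22, edgeR adjusted p = 0.0831), and exact permutation gave p = 0.0319. When control mouse 5 was left out it was -0.41 (adjusted p = 0.316), and 1 of the 8 treated mice was above the mean of the other 7 controls. Nilotinib 10 mg/kg gave 0 called genes of 9 where 1.41% of all genes were called, 0 of 9 at an unadjusted p below 0.01 where 5.97% of all genes passed, 0 at an unadjusted p below 0.05 and 0 by DESeq2. Usp18 was 27.4 ± 3.77 CPM at this dose. Its coefficient of variation was 13.8%, against 40.7% in control and 23.2% in the other 7 controls without control mouse 5.

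**Figure D2:**
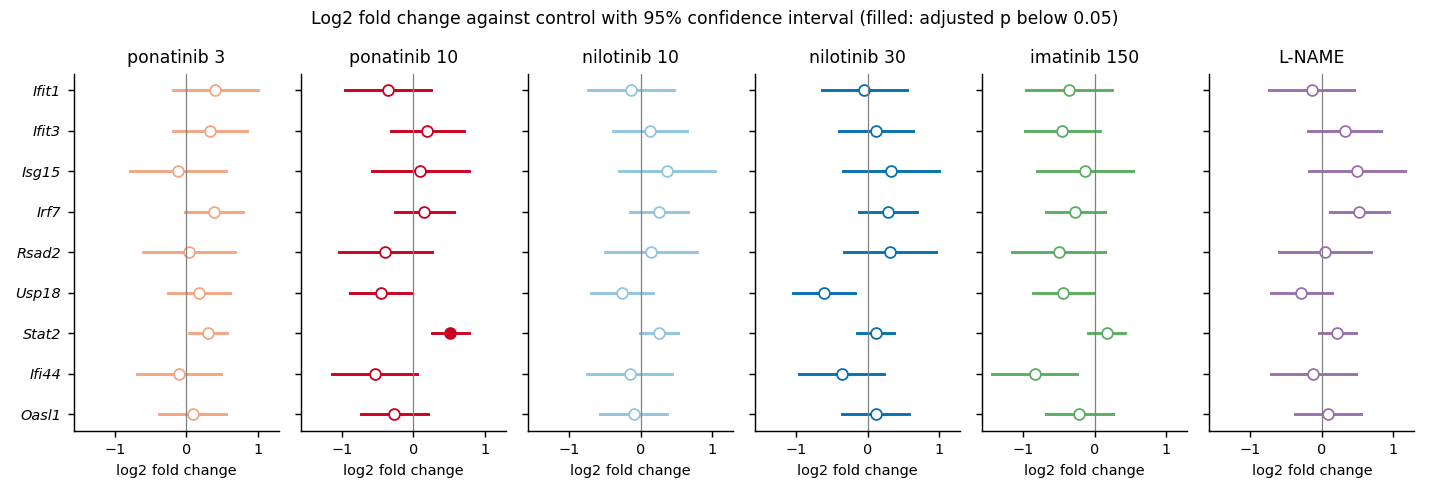
Log2 fold change of each gene against control (horizontal axis) with its 95% confidence interval, in 1 panel per treated group (doses in mg/kg). Filled points have an edgeR adjusted p below 0.05, which holds for Stat2 with ponatinib 10 mg/kg alone, and 8 of 9 points lie left of 0 with imatinib.

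Rsad2, Isg15, Ifit1 and Oasl1 were called in none of the 6 comparisons with control by edgeR, and none of these 24 tests had an unadjusted p below 0.05. Their mean levels lay between 14.6 CPM (imatinib) and 25.5 CPM (nilotinib 30 mg/kg) for Rsad2, and between 16.2 CPM (imatinib) and 25.0 CPM (L-NAME) for Isg15. Ifit1 had means from 15.5 CPM (ponatinib 10 mg/kg) to 26.4 CPM (ponatinib 3 mg/kg), and Oasl1 from 21.8 CPM (ponatinib 10 mg/kg) to 28.6 CPM (nilotinib 30 mg/kg). The residual SD within groups, on the log2(CPM + 1) scale, was 0.69 for Isg15, 0.68 for Rsad2 and 0.64 for Ifit1. It was 0.60 for Ifi44, 0.54 for Ifit3, 0.48 for Oasl1, 0.45 for Irf7, 0.44 for Usp18 and 0.26 for Stat2. Stat2 was the steadiest of the 9 genes within groups. Across the 54 comparisons with control the 95% confidence intervals of the fold change reached at most 2.25-fold (Isg15 with L-NAME) and at least 0.368-fold (Ifi44 with imatinib).

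Between doses and between drugs, none of the 9 genes was called by edgeR or by DESeq2. Ponatinib 10 against 3 mg/kg had 1.39% of all genes called. At the looser cut-off of an unadjusted p below 0.05, for which no share of all genes was computed, 2 of 9 genes passed. These were Usp18 (24.0 ± 9.09 against 37.2 ± 7.29 CPM, log2 fold change -0.63, SE 0.22, edgeR adjusted p = 0.126, exact permutation p = 0.0087) and Ifit1 (15.5 ± 7.26 against 26.4 ± 6.77 CPM, log2 fold change -0.76, adjusted p = 0.205). For Usp18, 8 of 8 mice on the higher dose were below the mean of the lower dose, and the 2 groups overlapped. Nilotinib 30 against 10 mg/kg had 0% of all genes called and 0 of the 9 below an unadjusted p of 0.05 by edgeR. Usp18 had the lowest exact permutation p there, 0.0458, at 21.6 ± 6.25 against 27.4 ± 3.77 CPM.

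The drugs were given at different doses, so the following values stand side by side as measured. Counts of the 9 genes use an unadjusted p below 0.05, and shares of all genes use an adjusted p below 0.05. The counts and shares are therefore not comparable. Ponatinib 10 mg/kg against imatinib 150 mg/kg had 1.08% of all genes called and 3 of the 9 genes below an unadjusted p of 0.05: Stat2 (log2 fold change 0.35, edgeR adjusted p = 0.244), Ifit3 (0.65, adjusted p = 0.294) and Irf7 (0.42, adjusted p = 0.442). Ponatinib 10 mg/kg against nilotinib 30 mg/kg had 1.88% of all genes called and 2 of 9 below 0.05, Stat2 (0.40, adjusted p = 0.0954) and Rsad2 (-0.70, adjusted p = 0.316). Imatinib against nilotinib 30 mg/kg had 3.59% of all genes called and 3 of 9 below 0.05. Those were Irf7 (-0.56, adjusted p = 0.121), Rsad2 (-0.81, adjusted p = 0.171) and Ifit3 (-0.57, adjusted p = 0.250). For Rsad2, 5 of 8 imatinib mice were below every nilotinib 30 mg/kg mouse (exact permutation p = 0.00528). In each of these comparisons the groups overlapped.

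Pooled over the 56 mice, the levels of the 9 genes were positively correlated. After the group means were removed, all 36 pairs had a positive Pearson correlation of log2(CPM + 1) over the 56 mice, from 0.22 (Rsad2 and Stat2) to 0.83 (Ifit3 and Irf7), with a median of 0.48 and 16 pairs above 0.5. All 36 pairs were again above 0 without control mouse 5, with a median of 0.45 and a lowest value of 0.18. Within single groups of 8 mice the picture varied. The median over the 36 pairs was 0.72 with imatinib, 0.60 with ponatinib 10 mg/kg, 0.57 in control, 0.52 with L-NAME and 0.42 with ponatinib 3 mg/kg. It was 0.31 with nilotinib 10 mg/kg and 0.15 with nilotinib 30 mg/kg, and in each of these 2 groups 25 of 36 pairs were above 0. In the 7 controls other than control mouse 5 the median was 0.36 and 28 of 36 pairs were above 0. The differences between groups were not tested. The values of a mouse come from 1 library, so its depth and scaling are shared by all genes. Against the mean of the other 8 genes, Ifit3 had the highest correlation (0.82) and Stat2 the lowest (0.43), with Irf7 at 0.77, Ifit1 at 0.71, Ifi44 and Oasl1 at 0.70, Isg15 at 0.64, Usp18 at 0.61 and Rsad2 at 0.50. The correlation of the genes' mean with the share of reads outside genes was 0.13, and with the log2 number of reads 0.08. Of single genes, Stat2 had the highest correlation with the share outside genes, 0.30.

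**Figure D3:**
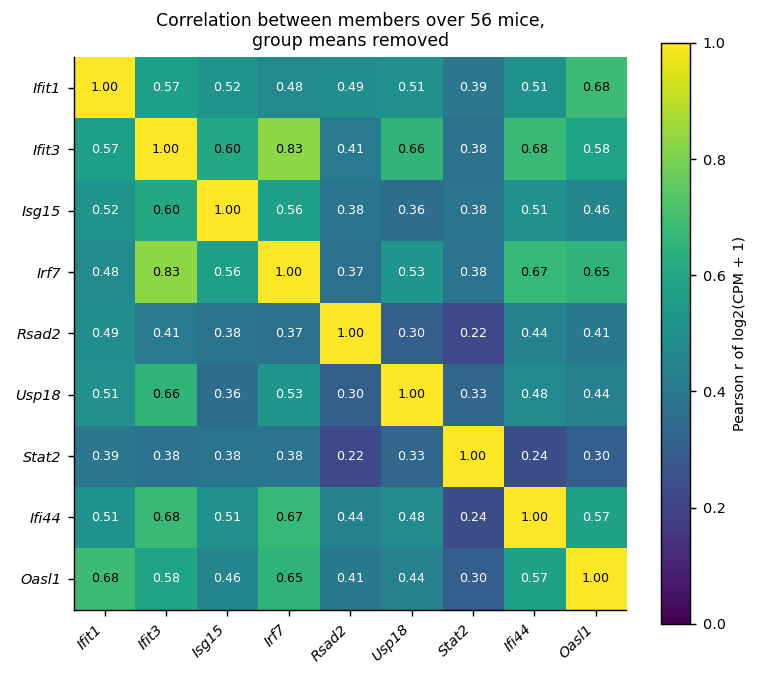
Pearson correlation between the 9 genes over 56 mice, computed on log2(CPM + 1) after subtracting each group's mean, with the value in each cell. All 36 pairs are above 0, Ifit3 and Irf7 are the closest pair (0.83), and the Stat2 and Rsad2 rows hold the lowest values.

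Among the 10 genes outside the group whose levels across mice were most like the mean of the 9 were Cxcl9 (Pearson r = 0.76), Rnf213 (0.75), Rtp4 (0.73), Oasl2 (0.72), Dhx58 (0.69), Gbp10 (0.68), Zbp1 (0.67), Uba7 (0.67) and Mx1 (0.67), over 56 mice with group means removed. Of these, Rnf213, Rtp4, Oasl2, Dhx58, Uba7 and Mx1 stand in the list of other interferon-stimulated genes, and Cxcl9, a chemokine that attracts T cells, in the list of interferon gamma genes. As a list, the other interferon-stimulated genes had a correlation of 0.89 with the mean of the 9, the interferon gamma genes 0.69, and the receptors and kinases 0.06. The correlation was 0.25 with the Kupffer cell list, 0.28 with the monocyte list and -0.21 with the hepatocyte list. It was 0.24 with the sinusoidal endothelial list and also 0.24 with the neutrophil list.

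1 control mouse stood apart. Control mouse 5 was the highest of the 8 controls for 8 of the 9 genes and the second highest for Oasl1. Ifit3 was 84.4 CPM in this mouse against 42.4 CPM in the next control, Ifi44 42.2 against 22.3 CPM, Isg15 38.5 against 21.8 CPM, Usp18 62.5 against 38.4 CPM and Irf7 180 against 123 CPM. The median over the 9 genes of its level relative to the control median was 1.99-fold. Its library was ordinary in depth (7953269 reads on genes) and in the share of reads outside genes (8.54%, where the controls ran from 7.55% to 8.67%).

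The pattern of control mouse 5 was broader than the 9 genes. This mouse was the highest control for 27 of 29 interferon gamma genes and 35 of 59 other interferon-stimulated genes, while it was the highest control for 10.8% of all genes tested. The interferon gamma-induced GTPase Iigp1 was 2817 CPM in this mouse and 245 to 450 CPM in the other 7 controls, and the related Tgtp1 was 81.9 CPM against 0.539 to 5.94 CPM. The summed level of the interferon gamma genes was 7928 CPM against 2547 to 3045 CPM. It was also the only control mouse with reads of Ifng, the gene of interferon gamma itself, and it had 2 (0.24 CPM). Single mice reached 0.92 CPM of Ifng with nilotinib 10 mg/kg and 0.88 CPM with ponatinib 10 mg/kg. The summed interferon gamma genes were at most 3327 and 3975 CPM in those 2 groups. The part of Ifng in the pattern was not tested. The summed Kupffer cell level (1307 CPM) lay within the range of the other controls (964 to 1830 CPM). The summed T and NK cell level (10.4 CPM) lay above the other controls (3.98 to 10.1 CPM), and this mouse was the highest control for 3 of 8 T and NK cell genes and 3 of 6 monocyte genes. The part of these cells in the pattern was not tested. These genes of 1 mouse were singled out after their values were seen.

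**Figure D4:**
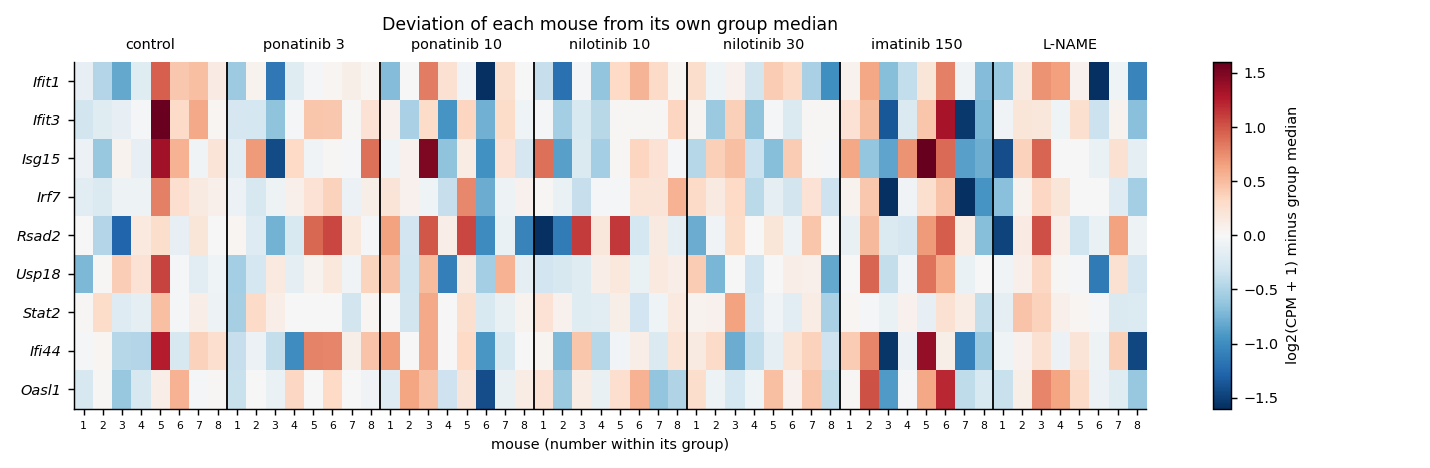
Deviation of each mouse (columns, numbered within the 7 groups) from its own group's median for each of the 9 genes (rows), in log2(CPM + 1), red above and blue below, with the colour scale ending at 1.6. Control mouse 5 is red in all 9 rows, ponatinib 10 mg/kg mouse 6 is blue in all 9, and imatinib mice 3, 7 and 8 are blue for Ifit3, Irf7 and Ifi44.

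Low mice were present in the treated groups and in control. Control mouse 3 was the lowest of its group for 4 of the 9 genes and among the 2 lowest for 5. Ponatinib 10 mg/kg mouse 6 was the lowest of its group for 5 of the 9 genes and among the 2 lowest for all 9, with Ifit1 at 3.28 CPM and Oasl1 at 7.41 CPM. Imatinib mouse 3 was among the 2 lowest of its group for 7 of the 9 genes, and nilotinib 10 mg/kg mouse 2 and L-NAME mouse 8 for 8 each. L-NAME mouse 3 was the highest of its group for 6 of the 9 genes. The libraries of the 4 low treated mice held 6988328 to 7895539 reads on genes, near the median of all mice.

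The rest of the pathway was read from lists that hold none of the 9 genes. Shares of all genes called are those of the main fit of all 56 mice. They were not computed for the alternative fits, so a lower count there may hold for all genes as well. Of 21 interferon genes, 20 had no counted read in any of the 56 mice, which allows at most 0.00544 CPM over all 551200512 reads, and Ifng had 55 reads spread over 12 mice. This limit covers counting error of uniquely aligned reads only. Many type I interferon genes are near-identical copies, and reads that align to more than 1 place were not counted, so the limit says little about those copies. None of the interferon genes passed the filter on low counts. Of the receptors and kinases, 8 of 9 passed it. With imatinib 4 of these 8 fell and 0 rose: Jak1 (log2 fold change -0.51, SE 0.11, edgeR adjusted p = 0.00191), Ifngr1 (-0.56, SE 0.16, adjusted p = 0.0146), Ifngr2 (-0.60, SE 0.19, adjusted p = 0.0269) and Ifnar1 (-0.36, SE 0.12, adjusted p = 0.0473), where 10.3% of all genes were called with imatinib. The number called lower was 1 with the share of reads outside genes as a covariate, 1 without the 4 deepest libraries, 2 without the 5 libraries above 12% outside genes and 3 without control mouse 5. With ponatinib 10 mg/kg Ifngr2 also fell (-0.62, adjusted p = 0.0180), with 0 of the 8 called under the covariate or without the 5 libraries above 12%. Jak1, the kinase shared by both receptors, was also lower with L-NAME (-0.34, SE 0.11, adjusted p = 0.0350), but not called there under the covariate or without the 4 deepest libraries. Ifnar2 and Tyk2 were called in no comparison with control, with log2 fold changes from -0.03 to 0.23 for Ifnar2 and from -0.05 to 0.16 for Tyk2.

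The counts in the next lists stand against shares of all genes called of 10.3% with imatinib and 13.1% with ponatinib 10 mg/kg. The shares were 5.77% with nilotinib 30 mg/kg and 11.8% with L-NAME. Of 9 transcription factors outside the group, Irf9, which acts with Stat2 in ISGF3, was called in no comparison with control. Its log2 fold change was highest with L-NAME (0.22, SE 0.13, edgeR adjusted p = 0.287). Irf8, a factor of macrophages and dendritic cells, fell with imatinib (-1.01, SE 0.24, adjusted p = 0.00312) and with ponatinib 10 mg/kg (-0.73, adjusted p = 0.0269). Irf5 fell with imatinib (-0.91, adjusted p = 0.0148), and Irf3 rose with ponatinib 10 mg/kg (0.43, adjusted p = 0.0147) and with L-NAME (0.40, adjusted p = 0.0266). Without control mouse 5, Irf8 with ponatinib 10 mg/kg (-0.63, adjusted p = 0.0752) and Irf3 with L-NAME (0.37, adjusted p = 0.0627) were not called. With the covariate, without the 4 deepest libraries and without the 5 libraries above 12%, 0 of the 9 factors were called with ponatinib 10 mg/kg and 0 with L-NAME, while with imatinib 1, 2 and 2 were. Of 15 nucleic acid sensors and adaptors, 4 fell with imatinib and 0 rose, with Ddx58 (the RNA sensor RIG-I) at -0.57 (adjusted p = 0.00333), Unc93b1, which carries Toll-like receptors to endosomes, at -0.54 (adjusted p = 0.00379) and Tlr3 at -0.82 (adjusted p = 0.0237). The count was 3 under the covariate, without the 4 deepest libraries and without the 5 above 12%, and 2 without control mouse 5. With ponatinib 10 mg/kg 2 of the 15 fell, the RNA sensor Ifih1 (-0.58, adjusted p = 0.0122) and Ddx58 (-0.44, adjusted p = 0.0181), and none of the 15 had a log2 fold change above 0. The number called was 0 under the covariate and 1 without control mouse 5. Without that mouse 3 of the 15 had a log2 fold change above 0. Mavs, the adaptor of both RNA sensors, fell with nilotinib 30 mg/kg (-0.45, adjusted p = 0.0243), and Ddx58 fell with L-NAME (-0.39, adjusted p = 0.0400). Neither group had a sensor called lower under the covariate. Of 11 negative regulators 2 fell with imatinib, Ptpn11 (-0.54, adjusted p = 0.00773) and Samhd1 (-0.68, adjusted p = 0.0187). The phosphatase Ptpn11 also fell with ponatinib 10 mg/kg (-0.44, adjusted p = 0.0263), nilotinib 30 mg/kg (-0.46, adjusted p = 0.0335) and L-NAME (-0.68, adjusted p = 0.000719), and Rnf125 fell with L-NAME (-1.94, adjusted p = 0.0122). Under the covariate 1 negative regulator was called with imatinib and 0 in the other 3 groups.

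Among 59 other interferon-stimulated genes, 10 fell and 0 rose with imatinib, where 10.3% of all genes were called, with a median log2 fold change of -0.31. The 3 with the smallest p were Lgals3bp (-0.67, SE 0.15, edgeR adjusted p = 0.00228), the ubiquitin ligase Herc6 (-0.91, SE 0.22, adjusted p = 0.00367) and Gm4951 (-0.70, SE 0.17, adjusted p = 0.00562). Of 29 interferon gamma genes, 12 fell and 1 rose with imatinib, with a median of -0.72. These included the GTPases Gbp2 (-1.53, SE 0.36, adjusted p = 0.00312) and Tgtp1 (-3.67, SE 0.92, adjusted p = 0.00578) and the antigen presentation protein Tapbp (-0.47, SE 0.11, adjusted p = 0.00345). Both counts depended on control mouse 5. Without it, 3 other interferon-stimulated genes were called lower (Lgals3bp, Slfn5 and Gm4951, all among the 10) and 2 interferon gamma genes (Tapbp and Cxcl10, both among the 12). The median over the interferon gamma genes was then -0.22, and over the other interferon-stimulated genes -0.26. With imatinib, Ifngr1, Ifngr2, Jak1, Irf5, Irf8, Unc93b1, Ddx58 and Ptpn11 were called with and without it, while Ifnar1, Tlr3 and Samhd1 were not called without it.

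With ponatinib 10 mg/kg, 2 of the 59 other interferon-stimulated genes rose and 5 fell, where 13.1% of all genes were called, with Lgals3bp (-0.66, edgeR adjusted p = 0.00181), Gm4951 (-0.64, adjusted p = 0.00883) and Ifitm3 (0.47, adjusted p = 0.00925) first by p. Of the interferon gamma genes 2 rose and 6 fell with this dose, led by Ciita, the switch of MHC class II genes (-2.25, adjusted p = 0.00149), Iigp1 (-1.13, adjusted p = 0.00222) and the MHC class I light chain B2m (0.35, adjusted p = 0.00304). The counts were 3 and 1 without control mouse 5, and Iigp1 was not among them. With the share of reads outside genes as a covariate, 0 other interferon-stimulated genes were called with this dose, and 3 interferon gamma genes, all lower. The share of all genes called in that fit was not computed. Of the other interferon-stimulated genes, 2 were called higher and 2 lower without control mouse 5, without the 4 deepest libraries 0 and 4, and without the 5 libraries above 12% outside genes 0 and 3. With L-NAME 5 other interferon-stimulated genes rose and 4 fell, where 11.8% of all genes were called, and the same 9 were called without control mouse 5. The numbers higher and lower were 0 and 2 under the covariate, 2 and 2 without the 4 deepest libraries, 4 and 2 without the 5 above 12%, and 8 and 4 with DESeq2. The 9 called in all 56 mice included Gm4951 (-0.88, adjusted p = 0.000448), Dtx3l (-0.66, adjusted p = 0.000874) and Bst2, which tethers viruses to the cell surface (0.50, adjusted p = 0.00192). Of the interferon gamma genes 1 rose and 3 fell with L-NAME, but 5 rose and 0 fell without control mouse 5. With nilotinib 30 mg/kg 2 other interferon-stimulated genes rose and 3 fell, where 5.77% of all genes were called, with Dtx3l lowest by p (-0.69, adjusted p = 0.00168). Under the covariate these counts were 0 and 1, and without the 4 deepest libraries 0 and 2. With ponatinib 3 mg/kg and nilotinib 10 mg/kg, edgeR called 0 of 59. At an unadjusted p below 0.05, 4 and 12 of the 59 passed, with no share of all genes computed there. DESeq2 called 0 of them with ponatinib 3 mg/kg and 2 with nilotinib 10 mg/kg. Of the interferon gamma genes edgeR called 0 in both groups, 9 and 7 passed an unadjusted p below 0.05, and DESeq2 called 0 and 1. The median log2 fold change of the interferon gamma genes changed sign without control mouse 5 in 4 groups. It went from -0.38 to 0.22 with ponatinib 3 mg/kg, from -0.15 to 0.26 with nilotinib 10 mg/kg, from -0.27 to 0.26 with nilotinib 30 mg/kg and from -0.10 to 0.37 with L-NAME. The median of the 9 genes themselves went from 0.18 to 0.37 with ponatinib 3 mg/kg and from -0.35 to -0.18 with imatinib.

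**Figure D5:**
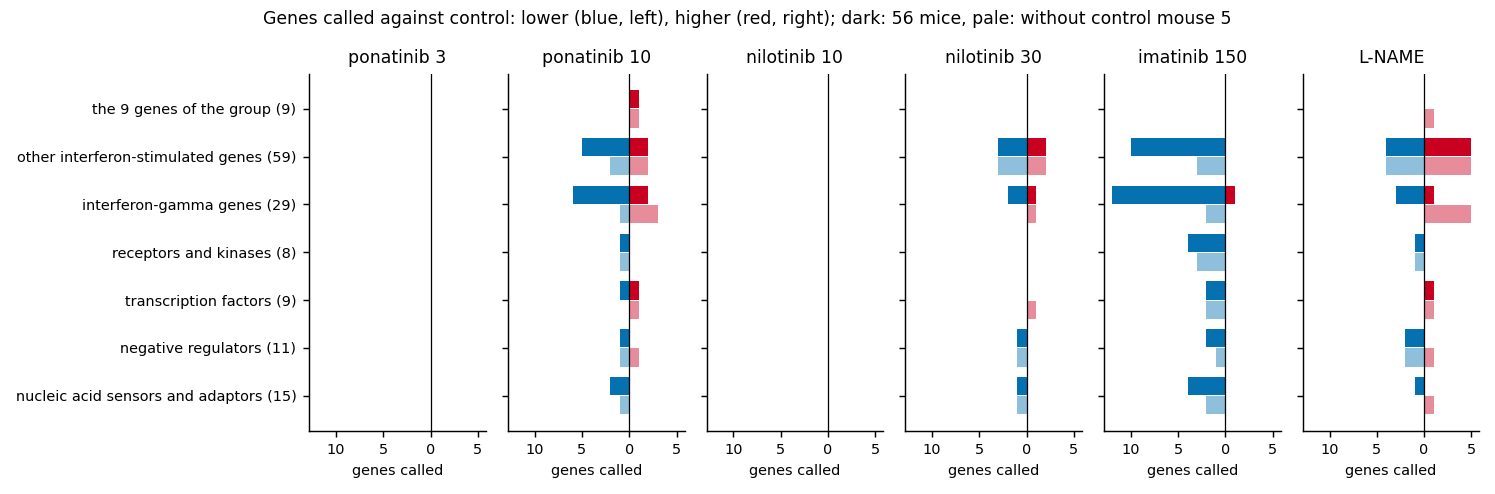
Number of genes called against control (horizontal axis, adjusted p below 0.05) in each list (rows, number tested in brackets) for the 6 treated groups, lower in blue to the left and higher in red to the right. Dark bars use all 56 mice and pale bars leave out control mouse 5, without which the interferon gamma genes called lower with imatinib go from 12 to 2.

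Some cell markers were lower with imatinib, where 10.3% of all genes were called. Of 10 Kupffer cell genes, 3 fell with imatinib and 0 rose: Cd5l (-1.23, SE 0.23, edgeR adjusted p = 0.000245), Adgre1 (-1.35, SE 0.36, adjusted p = 0.01002) and Csf1r (-0.76, SE 0.25, adjusted p = 0.0386). The summed Kupffer cell level was 599.6 to 1203 CPM with imatinib and 964 to 1830 CPM in control. Of 6 monocyte genes 1 fell, Lyz2 (-1.43, adjusted p = 0.000359), and the summed level was 92.5 to 195 CPM against 144 to 426 CPM. In whole liver, fewer cells of a type and less RNA per cell cannot be told apart, and the part of these cells in the interferon lists was not tested. With ponatinib 10 mg/kg 2 Kupffer cell genes rose, where 13.1% of all genes were called. These were the lectin Clec4f (0.61, adjusted p = 0.0216) and the scavenger receptor Marco (2.32, adjusted p = 0.0227). The summed Kupffer cell level was 555 to 2793 CPM at this dose. Of 8 genes listed for plasmacytoid dendritic cells, the main producers of type I interferon, 2 passed the filter on low counts. The summed level of the list was 216 to 358 CPM in control and 307 to 417 CPM with imatinib. Siglech and Ccr9 made little part of this sum, and other genes of the list were expressed. The sum therefore cannot be read as a level of these cells. Siglech had 309 reads in 27 mice and Ccr9 304 reads in 25 mice over the whole study. Of 8 sinusoidal endothelial, 5 cholangiocyte, 4 B cell and 8 tested T and NK cell genes, edgeR called 0 with imatinib and 0 with ponatinib 10 mg/kg. At an unadjusted p below 0.05 there were 2 endothelial genes in each of these groups, 1 T and NK cell gene with imatinib and none of the B cell or cholangiocyte genes.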

How the data were processed

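Liver RNA of 56 mice was sequenced on a NextSeq 500 after poly(A) selection. The authors aligned reads to GRCm38 with TopHat2 2.0.14 and Bowtie2 2.1.0 and deposited whole-number read counts per Ensembl gene from HTSeq 0.6.1p1, 1 file per mouse; SAMtools 0.1.18 was also used. The 5 total lines of each file were left out of library sizes.

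Symbols came from GENCODE vM21, which named 44585 of 45513 genes. Counts were fitted with edgeR 4.0.16 (R 4.3.3; filterByExpr, TMM, quasi-likelihood F test, 7 groups, 56 mice), with Benjamini-Hochberg adjustment over 14314 genes, and called below 0.05; the study's cut-off, an unadjusted p below 0.01, was an alternative, as were DESeq2 1.42.0 and limma 3.58.1 voom. Single genes also had exact two-sided permutation tests (8 against 8, 12870 relabellings) on log2(CPM + 1). The fit was tested on simulated data. Named genes were the 9 genes, Irf9, Ifnar1, Ifnar2, Jak1 and Tyk2, the 10 most similar genes, and of each list the 3 with the smallest p among those called; other names were chosen after their values were seen. The genes and lists were chosen with earlier results of these data known. The paper's supplement reports several mice per cage. Labels do not say which mice shared a cage or a litter, so p-values measure the spread between these mice. 1 gene that this rule names is not reported here.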

Additional observations from a re-analysis of the deposited data

Results flagged for a closer look

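In 63 sets of 8 values (9 genes in 7 groups), Dixon's test at the 95% level set 1 mouse apart 9 times. Chance flags about 1 in 20 sets that are independent and normally distributed. The 9 genes correlate over mice and the test used CPM without logarithms, so that rate is no fair measure here. Of the 9 flags, 5 concern control mouse 5: Ifit3 at 84.4 CPM, Isg15 at 38.5 CPM, Irf7 at 180 CPM, Usp18 at 62.5 CPM and Ifi44 at 42.2 CPM, each the highest control value. The other 4 are Isg15 at 48.6 CPM in ponatinib 10 mg/kg mouse 3 (next 19.6 CPM), Isg15 at 42.4 CPM in imatinib mouse 5 (next 22.9 CPM), Stat2 at 151 CPM in nilotinib 30 mg/kg mouse 3 (next 104 CPM) and Ifi44 at 6.07 CPM in L-NAME mouse 8 (next 17.2 CPM).

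The same test applied to the libraries set apart 15789978 reads on genes in ponatinib 3 mg/kg mouse 2, 5342379 in nilotinib 10 mg/kg mouse 1 and 97473341 in L-NAME mouse 2. For the share of reads outside genes it set apart imatinib mouse 4 at 14.1% and L-NAME mouse 2 at 16.8%.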

How the results depend on the processing

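Of the 54 fold changes of the 9 genes against control, 37 kept their direction in every alternative run, and 39 of 3393 alternative values turned it. The count of called genes did not change with ponatinib 3 mg/kg or nilotinib 10 mg/kg. With ponatinib 10 mg/kg it went from 1 to 0 with the share of reads outside genes as a covariate. With nilotinib 30 mg/kg it went from 0 to 1 at an unadjusted p below 0.01, with limma voom and without the 4 deepest libraries. With imatinib it went from 0 to 1 at that cut-off and with DESeq2 and to 3 with limma voom. With L-NAME it went to 1 with DESeq2, with limma voom and in a fit of the 16 mice of the 2 groups. With each mouse left out in turn it ranged from 0 to 1 for nilotinib 30 mg/kg (1 without control mouse 1), imatinib (1 without control mouse 3 or 4 or imatinib mouse 2, 5 or 6) and L-NAME (1 without control mouse 5). In the F test over all groups, 2 genes were called, against 0 with the covariate, 0 without the 5 libraries above 12% outside genes, 1 without the 4 deepest and 0 to 4 with 1 mouse left out. The share of all genes called was not computed for these alternative fits.

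Directions turned for small differences. With limma voom the log2 fold change was -0.14 for Rsad2 with ponatinib 3 mg/kg, -0.10 for Rsad2 with nilotinib 10 mg/kg, and -0.035 for Rsad2 and -0.052 for Oasl1 with L-NAME. With the covariate it was -0.32 for Isg15 with ponatinib 10 mg/kg and -0.00598 for Stat2 with nilotinib 30 mg/kg. Without the 5 libraries above 12% outside genes Isg15 with ponatinib 10 mg/kg was -0.28, and without the 4 deepest Ifit3 was -0.019 with nilotinib 10 mg/kg and -0.0300 with nilotinib 30 mg/kg. With 1 mouse left out, ponatinib 3 mg/kg gave -0.27 to 0.14 for Isg15, -0.15 to 0.13 for Rsad2 and -0.23 to 0.15 for Ifi44, and ponatinib 10 mg/kg gave -0.28 to 0.36 for Isg15. Nilotinib 10 mg/kg gave -0.25 to 0.040 for Ifit1, -0.068 to 0.29 for Rsad2, -0.25 to 0.10 for Ifi44 and -0.21 to 0.0063 for Oasl1, and nilotinib 30 mg/kg gave -0.14 to 0.12 for Ifit1 and -0.0029 to 0.18 for Stat2. Imatinib gave -0.51 to 0.13 for Isg15, and L-NAME gave -0.31 to 0.026 for Ifit1, -0.16 to 0.18 for Rsad2, -0.20 to 0.13 for Ifi44 and -0.045 to 0.19 for Oasl1. The causes were not tested. The alternatives without the 4 deepest libraries, without the 5 libraries above 12% outside genes, for the F test over all groups and for the lists without control mouse 5 were chosen after seeing the data.

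Without control mouse 5 Ifi44 with imatinib was -0.59 (edgeR adjusted p = 0.240) and Ifit3 was -0.14, and the median of the 9 genes was -0.18. With the covariate the other interferon-stimulated genes called lower with imatinib were 6 and the interferon gamma genes 8. In simulated data for ponatinib 10 mg/kg against control, over 14314 genes, edgeR recovered 52% of 100 genes with a log2 change of 1 and 13% of 100 with a change of 0.5. Changed genes that the filter dropped counted as missed. In the real comparison 1877 genes were called, and the Benjamini-Hochberg cut-off is stricter when fewer genes change. The simulated shares may thus be lower than the recovery in the real fit.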
